A study of Mus musculus with 3 samples.

Results

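Immediate early genes are the genes that a cell switches on within minutes of a stimulus from RNA polymerase and transcription factors that are already in place. The 10 examined here were taken by name, with earlier results of these data already known: *Fos*, *Fosb*, *Jun*, *Junb*, *Jund*, *Egr1*, *Ier2*, *Atf3*, *Dusp1* and *Btg2*. All 10 were present in each of the 3 single-cell RNA-sequencing libraries of mouse retina, among 18823 genes in the explant library, 17851 in the postnatal day (P) 0 library and 17849 in the P14 library. Each library pooled separate samples that had been tagged with lipid-anchored oligonucleotides (MULTI-seq) after papain dissociation.

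The first library held 8 explants of wild-type CD1 retina, taken at embryonic day 14 and cultured for 6 days, with 2 explants each at 0, 5, 50 and 500 nM of a small-molecule agonist of the somatostatin receptor Sstr2. The P0 and P14 libraries each held 5 littermate retinas of mixed C57BL/6 and CD1 background, of which 1 was labelled Sstr2 +/+, 2 were labelled +/- and 2 were labelled -/- for a germline deletion. The allele was made in C57BL/6NCrl and outbred to CD1. No undissociated tissue was analysed here, so the part that dissociation has in these levels was not tested. Cell types are those the submitters assigned, and levels are counts of unique molecular identifiers (UMIs), summed over the cells of a type in a sample and scaled to a total of 1000000 UMIs (CPM). The set of cells called a type was defined by clustering on all genes, so levels between types are described without a test.

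*Fos*, *Fosb*, *Jun*, *Junb* and *Jund* encode subunits of the AP-1 transcription factor, in which a Fos protein pairs with a Jun protein, and *Atf3* encodes a stress-induced relative that can join such dimers. *Egr1* encodes a zinc-finger transcription factor and *Ier2* a nuclear protein of the same early wave. *Dusp1* encodes a phosphatase that switches off the MAP kinases which induce the others, and *Btg2* encodes an antiproliferative protein long used as a mark of progenitors about to undergo a neurogenic division. In retina these genes respond to light, injury and growth factors, and they also respond to the handling of living tissue, including enzymatic dissociation.

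Many of these genes carry a cyclic AMP response element in the promoter, and Sstr2 is a receptor that lowers cyclic AMP, so the promoters are shown for 1 gene of AP-1, for the phosphatase and for the member that stood apart from the rest across cell types. The stretches are the 250 bases before the RefSeq transcription start (GRCm38.p6), 5′ to 3′ on the gene's own strand, with copies of TGACG, which is contained in TGACGT and TGACGTCA, in capitals on either strand, each written to its full match.
Fos, chr12:85473640-85473889, plus strand: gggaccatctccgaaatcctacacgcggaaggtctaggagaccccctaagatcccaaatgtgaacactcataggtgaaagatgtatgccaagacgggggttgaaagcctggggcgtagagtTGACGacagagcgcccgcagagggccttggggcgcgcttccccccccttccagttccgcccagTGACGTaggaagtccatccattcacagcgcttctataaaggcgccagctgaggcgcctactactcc
Dusp1, chr17:26508473-26508722, minus strand: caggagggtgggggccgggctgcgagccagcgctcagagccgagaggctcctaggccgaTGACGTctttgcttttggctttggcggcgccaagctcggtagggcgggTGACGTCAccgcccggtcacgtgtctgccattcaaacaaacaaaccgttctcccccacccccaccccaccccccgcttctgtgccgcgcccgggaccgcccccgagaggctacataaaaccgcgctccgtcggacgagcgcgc
Btg2, chr1:134079156-134079405, minus strand: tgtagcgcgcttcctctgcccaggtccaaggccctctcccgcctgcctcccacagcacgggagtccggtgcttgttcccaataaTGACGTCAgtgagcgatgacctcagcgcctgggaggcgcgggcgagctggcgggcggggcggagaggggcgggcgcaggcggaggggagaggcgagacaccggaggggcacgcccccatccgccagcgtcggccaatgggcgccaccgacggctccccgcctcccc
The full palindrome TGACGTCA lay in *Dusp1*, starting at position -143, and in *Btg2*, starting at -166, and the shorter TGACGT lay in *Fos* at -66. Of the 8 members with a RefSeq promoter entry, 2 held TGACGTCA, 4 held TGACGT (*Fos*, *Atf3*, *Dusp1* and *Btg2*) and 6 held TGACG, all but *Jun* and *Jund*. Among the 32851 promoter stretches of the same length these letters occurred in 1.55%, 6.47% and 17.8%. TATAAA lay in *Fos* only, at -33, against 12.4% of all stretches, and the CArG box lay in 0 of the 8, against 1.47%. *Egr1* and *Ier2* were not matched to an entry, and no base beyond these 250 was searched. The counts therefore do not show that a gene lacks such a site.

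The samples held 318 to 1075 cells and 1281682 to 4237324 UMIs in the explants, 1018 to 1254 cells and 8822880 to 10793649 UMIs at P0, and 304 to 1000 cells and 1266730 to 5886669 UMIs at P14. Of the 5 to 8 markers listed for each type, all or all but 1 or 2 were highest in their own type. Cells named retinal ganglion cells (RGCs) at P0 were far deeper than the rest, at 24853 UMIs for the median cell of 85, where the other types had medians of 4534 to 8759. At P0 the targeted gene did not fall with the label: *Sstr2* in neurogenic progenitors measured 112 CPM in the retina labelled +/+, 189 and 248 CPM in the pair labelled +/- and 294 and 375 CPM in the pair labelled -/-. The paper also reports more *Sstr2* mRNA in these cells of P0 mutants, and proposes that Sstr2 signaling may hold down its own transcription. Tags come from the 3′ end, and the deleted part is not given in the sources used here, so these counts check the labels only if the deletion reaches that end. Genotypes are therefore given as labelled throughout.

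The largest contrast in the level of the immediate early genes was between Müller glia, the radial glia of the mature retina, and every other cell type at P14. Summed over the 10 genes, Müller glia measured 22601 CPM in the retina labelled +/+, 26356 and 19589 CPM in the pair labelled +/- and 22389.5 and 24917 CPM in the pair labelled -/-. The mean was 23170.4 ± 2596 CPM (SD, n = 5), which is 4.39 times that of cones, 5.19 times that of rods and 7.70 times that of bipolar cells. No Müller glia sample overlapped any sample of another type. Cones measured 5282 ± 1777 CPM (SD, n = 5) and rods 4462 ± 736 CPM (SD, n = 5), a pair whose ranges overlapped. Bipolar cells measured 3010.1 ± 451 CPM (SD, n = 5) and amacrine cells 1216 ± 447 CPM (SD, n = 5), the latter from only 68 cells.

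**Figure D1:**
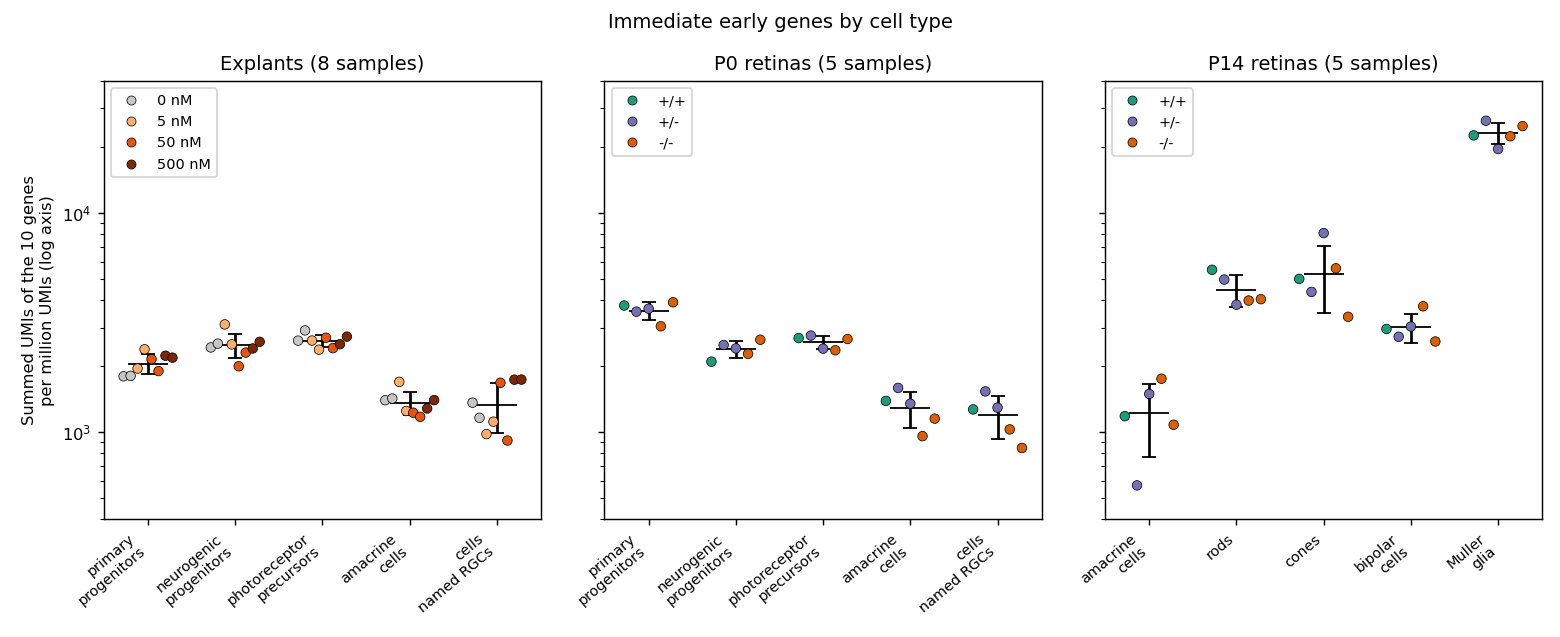
Summed level of the 10 immediate early genes (CPM, log axis) in each deposited cell type of the explants, P0 retinas and P14 retinas, with 1 point per sample, colored by agonist dose or labelled genotype, and the mean ± SD in black. Müller glia at P14 lie between 19589 and 26356, above all other points.

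The AP-1 genes took the largest part of this difference. *Fos* in Müller glia measured 5878 CPM in the retina labelled +/+, 7096 and 5358 CPM in the pair labelled +/- and 5474 and 6316 CPM in the pair labelled -/-, and *Jun* measured 4196 CPM in the retina labelled +/+, 4622 and 3313 CPM in the pair labelled +/- and 4278 and 4289 CPM in the pair labelled -/-. In rods *Fos* measured 2069 CPM in the retina labelled +/+, 1916 and 1418 CPM in the pair labelled +/- and 1394 and 1542 CPM in the pair labelled -/-, so the ranges did not overlap. *Jun* in rods was 236 ± 28.1 CPM (SD, n = 5), and the Müller glia mean was 17.5 times as high. *Junb*, *Fosb* and *Jund* in Müller glia had means of 2279, 1665 and 2475 CPM, which are 9.92, 8.16 and 7.80 times those of rods.

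The other members followed, with 1 exception. *Dusp1*, the feedback phosphatase, measured 1000.2 ± 166 CPM (SD, n = 5) in Müller glia and 78.0 ± 26.2 CPM (SD, n = 5) in bipolar cells, the next highest type. *Atf3* measured 371 CPM in the retina labelled +/+, 581 and 87.7 CPM in the pair labelled +/- and 295 and 507 CPM in the pair labelled -/- in Müller glia, so that the second retina labelled +/- stood far below the others, and at most 82.6 CPM in any sample of another type at P14. *Egr1* was the exception. It measured 1844 ± 159.7 CPM (SD, n = 5) in Müller glia and 1303 ± 260.4 CPM (SD, n = 5) in rods, and although Müller glia were higher in 5 of 5 retinas, the ranges overlapped, and they overlapped only for this member. Müller glia and photoreceptors differed in the proportions of the members as well as in their level: the ratio of *Egr1* to *Jun* was 0.445 (0.424 to 0.485) in Müller glia and 5.51 (4.62 to 6.13) in rods, and that of *Fos* to *Jun* was 1.46 (1.28 to 1.62) and 7.06 (6.22 to 7.67), with the range over 5 retinas in parentheses.

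The level was spread over most Müller glia cells rather than held by a few. Müller glia were also deeper, the median cell holding 15108 UMIs where rods held 3374 and cones 10245, so each cell was thinned to 2000 UMIs, which left out 18 of 266 Müller glia cells and 296 of 2271 rods. A thinned Müller glia cell then held a median of 46.5 UMIs of the 10 genes, with 11 at the 10th and 68.3 at the 90th percentile, and a median of 9 of the 10 genes. The medians were 6 UMIs in rods, 9 in cones, 4 in bipolar cells and 3 in amacrine cells. At least 5 of the genes were seen in 90.7% of Müller glia cells and in 29.7% of rods. *Fos* was seen in 94.8% of thinned Müller glia cells and 78.0% of thinned rods (97.4% and 85.1% unthinned), and *Jun* in 94.0% and 31.1% (94.7% and 44.9% unthinned). No retinal cell type is known to lack these genes, so the share that free RNA alone would give was not measured.

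**Figure D2:**
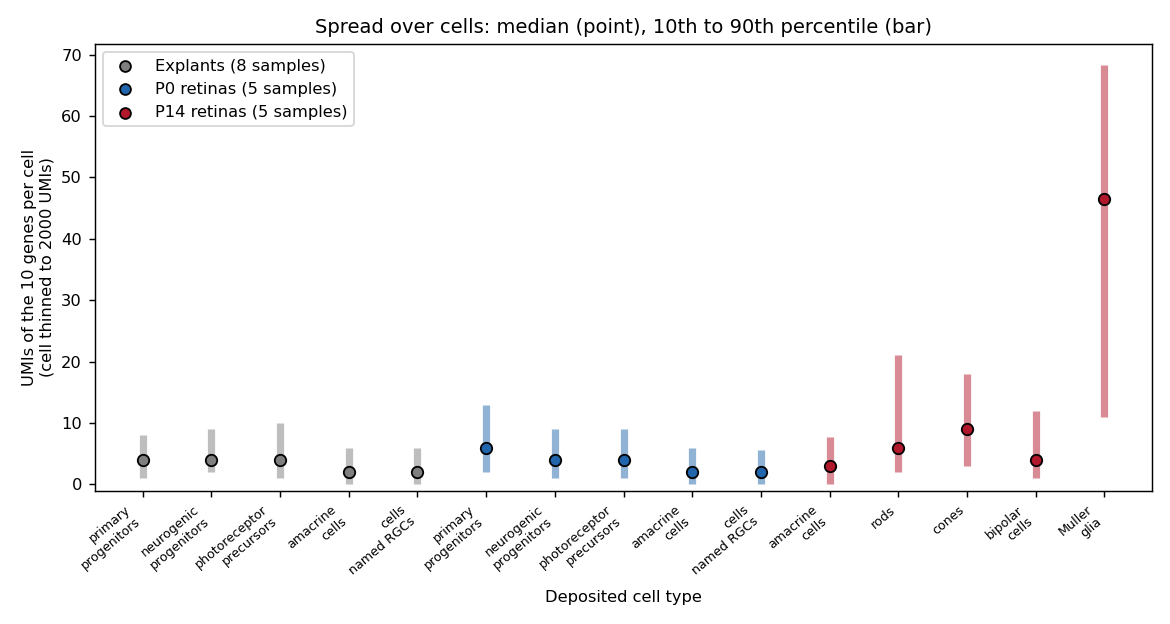
UMIs of the 10 immediate early genes per cell after each cell was thinned to 2000 UMIs, for each deposited cell type of the 3 libraries; points are medians over cells and bars run from the 10th to the 90th percentile. The Müller glia median of 46.5 stands above every other type, the next being cones at 9.

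Other immediate early genes were also highest in Müller glia, and their upstream regulators were lowest there. A list of 37 further genes of this class, among them *Nr4a1*, *Klf4*, *Zfp36* and *Ier3*, summed to 9522 ± 985 CPM (SD, n = 5) in Müller glia, against means of 720.0 to 1396 CPM in the other 4 types. The 18 upstream regulators (*Srf*, the *Elk* and *Creb* families and the MAP kinases) summed to 729 ± 56.6 CPM in Müller glia and to 1092 ± 53.5 CPM in rods. The 19 heat shock and stress genes summed to 8766 ± 544 CPM in Müller glia and 7845 ± 259.7 CPM in rods. Of markers of other cells in Müller glia, those of microglia summed to 52.3 CPM, of astrocytes to 229 CPM, of rods to 2257 CPM and of endothelial cells to 914 CPM. *Kdr* made up 95.5% of the UMIs of the 5 endothelial markers, and 200 of 266 Müller glia cells held 3 or more such UMIs. In the 66 cells with under 3 UMIs of those markers the 10 genes summed to 16980.1 CPM (mean of 5 retinas). The cut is a fixed number of UMIs, which deeper cells reach more easily, so it does not separate depth from marker level. In P0 primary progenitors *Kdr* made up 98.8% of these UMIs and 779 of 2797 cells reached the cut, so reaching it need not mark an endothelial cell. Of the 578 bipolar cells, 6 carried 3 or more UMIs of microglia markers and measured 15946 CPM of the 10 genes, and without them the bipolar mean was 2835 CPM.

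In the developing retina the members split by cell type into separate patterns. At P0, primary progenitors, which divide without committing, had the highest sum, 3781 CPM in the retina labelled +/+, 3545 and 3656 CPM in the pair labelled +/- and 3040.3 and 3912 CPM in the pair labelled -/-, and no sample overlapped another type. Photoreceptor precursors measured 2574 ± 178 CPM (SD, n = 5) and neurogenic progenitors, which make neurons at their last division, 2384 ± 208 CPM (SD, n = 5). Amacrine cells measured 1288 ± 241 CPM (SD, n = 5) and cells named RGCs 1194 ± 264 CPM (SD, n = 5), a pair whose ranges overlapped. In the explants the order of the sums changed: photoreceptor precursors measured 2609 ± 174 CPM (SD, n = 8), neurogenic progenitors 2484 ± 309.6 CPM (SD, n = 8) and primary progenitors 2051 ± 218 CPM (SD, n = 8), and these neighbours overlapped. *Btg2* made up 40.5% of the sum in explant neurogenic progenitors, 27.6% in photoreceptor precursors and 9.43% in primary progenitors. *Jund* made up 23.2%, 32.4% and 21.4% in the same order. The order of the sums was not that of every member. *Fos*, *Jun*, *Egr1*, *Ier2* and *Atf3* had higher means in explant primary progenitors than in photoreceptor precursors, and the other members had lower ones. All members but *Btg2* and *Jund* had a higher mean in explant primary progenitors than in neurogenic progenitors.

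*Egr1*, *Ier2* and *Jun* set primary progenitors apart at P0. *Egr1* was 734 ± 62.5 CPM (SD, n = 5) there and 286 ± 80.3 CPM (SD, n = 5) in photoreceptor precursors, the next type. *Ier2* was 556 ± 44.0 CPM (SD, n = 5) against 273 ± 50.6 CPM (SD, n = 5) in neurogenic progenitors. *Jun* was 575 ± 87.5 CPM (SD, n = 5) against 292 ± 43.3 CPM (SD, n = 5) in photoreceptor precursors. The ranges of these 3 genes did not overlap between the types compared. *Atf3* was 60.7 ± 21.1 CPM (SD, n = 5) against 12.1 ± 11.6 CPM (SD, n = 5) in neurogenic progenitors, and those ranges overlapped. *Fosb*, *Fos* and *Junb* were also above the next type in 5 of 5 retinas, with overlapping ranges and ratios of means of 2.58, 1.70 and 1.21. *Atf3* was also the most unevenly held member by this measure: 5% of the primary progenitors carried 66.1% of its 1644 UMIs. The share was 50.1% for *Fosb*, with 1612 UMIs. It was 24.1% for *Jun* and 17.0% for *Jund*, which had 15438 and 21231 UMIs. The cells were picked by their own UMIs of the gene, so genes with few UMIs reach a high share more easily.

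*Btg2* and *Jund* were highest in other types. *Btg2* was highest in neurogenic progenitors, at 630.5 CPM in the retina labelled +/+, 649 and 768 CPM in the pair labelled +/- and 601 and 769.6 CPM in the pair labelled -/-, and lower in photoreceptor precursors at 471 ± 43.9 CPM (SD, n = 5) and in primary progenitors at 139 ± 14.2 CPM (SD, n = 5), with no overlap. In the explants neurogenic progenitors were highest in 8 of 8 samples, although the ranges overlapped with photoreceptor precursors, at 1007 ± 181 CPM (SD, n = 8) in neurogenic progenitors, 721 ± 113 CPM (SD, n = 8) in photoreceptor precursors and 191 ± 31.7 CPM (SD, n = 8) in primary progenitors. *Jund* was highest in photoreceptor precursors, at 938 ± 60.5 CPM (SD, n = 5) at P0 and 843 ± 34.0 CPM (SD, n = 8) in the explants, without overlap with the next type, neurogenic progenitors. *Fos* was lowest in neurogenic progenitors, at 94.2 ± 24.6 CPM (SD, n = 5) at P0, where the range overlapped that of amacrine cells, and at 68.6 ± 27.0 CPM (SD, n = 8) in the explants, where it overlapped only that of cells named RGCs. *Dusp1* was low everywhere, with means of 21.2 to 48.1 CPM at P0.

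**Figure D3:**
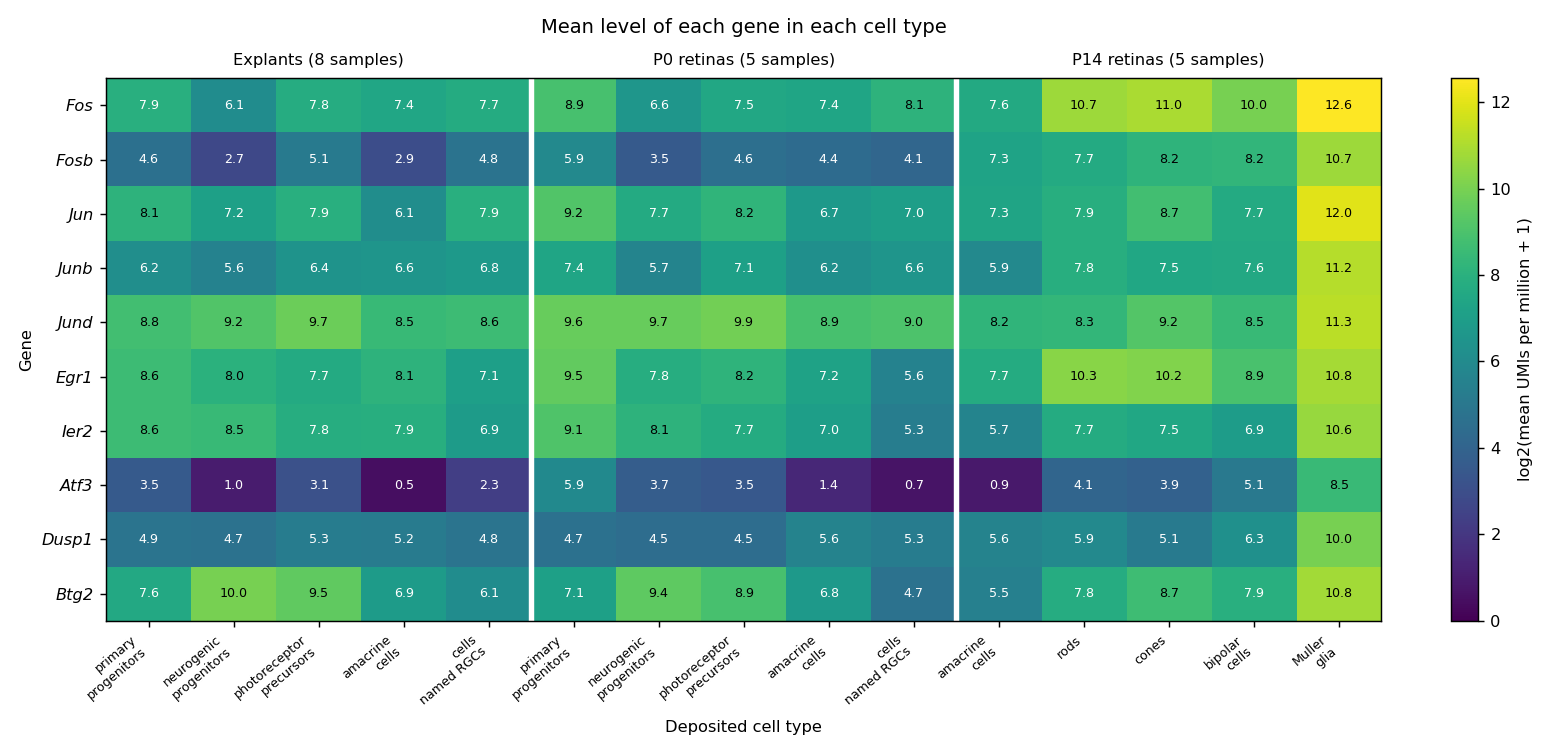
Mean level of each of the 10 genes, as log2(mean CPM + 1), in each deposited cell type (columns) of the explants, P0 retinas and P14 retinas. Within the P14 library Müller glia hold the highest value of all 10 genes. *Btg2* peaks among the immature types in neurogenic progenitors (means of 1007 and 684 CPM) while *Fos* is lowest there.

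The explants and the P0 retinas are close in age and share 4 cell types with enough cells, so they were set side by side. In primary progenitors the P0 retinas held more of most members: 6 of 10 (*Jun*, *Junb*, *Jund*, *Egr1*, *Ier2* and *Atf3*) were above all 8 explants in all 5 retinas, where 24.0% of all genes did not overlap in either direction. The sum was 2051 ± 218 CPM (SD, n = 8) in the explants and 3587 ± 335 CPM (SD, n = 5) in the retinas, a ratio of 1.75. *Atf3* differed most, running from 5.24 through a median of 9.70 to 19.8 CPM in the explants and from 32.0 through a median of 62.3 to 90.3 CPM in the retinas, a ratio of 5.72. *Junb* ran from 46.5 through a median of 74.6 to 99.3 CPM in the explants and from 128 through a median of 173 to 191 CPM in the retinas. *Btg2* and *Dusp1* had ratios of 0.727 and 0.870, and their ranges overlapped.

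In the other types the sides mostly overlapped. In neurogenic progenitors 1 of 10 members (*Jund*) did not overlap, against 11.0% of all genes. In photoreceptor precursors 1 of 10 (*Btg2*, lower at P0 with a ratio of 0.654) did not overlap, against 20.6%. In amacrine cells 1 of the 9 members above a mean of 5 CPM (*Jund*) did not overlap, against 13.9%, and the sums in these 3 types had ratios of 0.960, 0.986 and 0.950. Each side is 1 library, so culture, strain background, dissociation and library cannot be told apart.

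**Figure D4:**
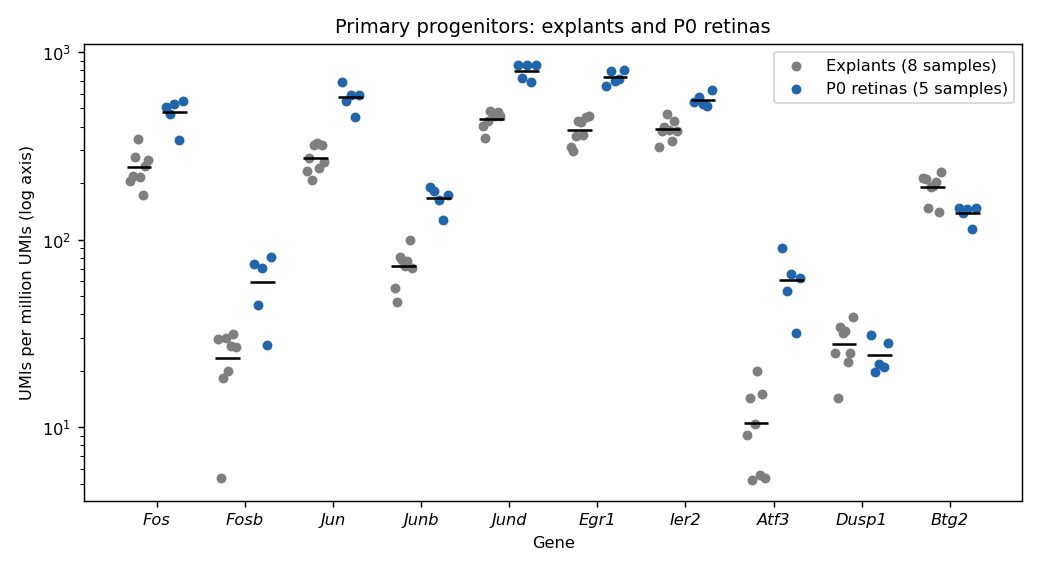
Level of each of the 10 genes in primary progenitors (CPM, log axis) in 8 explants (grey) and 5 P0 retinas (blue), with the mean as a black line. The retinas lie above all explants for *Jun*, *Junb*, *Jund*, *Egr1*, *Ier2* and *Atf3*.

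The agonist series asks whether activating Sstr2 changes these genes. In primary progenitors *Egr1* measured 313 and 295 CPM in the 2 explants without agonist, 359 and 430.3 CPM in those given 5 nM, 424 and 359.6 CPM in those given 50 nM, and 449.9 and 456 CPM in those given 500 nM. Both explants at 500 nM were above both at 0 nM, and those at 5 and 50 nM lay between. The difference between 500 and 0 nM did not pass the threshold of 0.05 (log2 fold change 0.52, SE 0.13, edgeR adjusted p = 0.0623). It passed in 4 of 13 alternative settings, with adjusted p from 0.00361 to 0.63 and a positive sign in all 13. *Junb* measured 55.4 and 46.5 CPM in the 2 explants without agonist, 81.1 and 77.4 CPM in those given 5 nM, 72.1 and 77.1 CPM in those given 50 nM, and 99.3 and 70.9 CPM in those given 500 nM (log2 fold change 0.63, SE 0.20, edgeR adjusted p = 0.261). *Jund* came next by p (log2 fold change 0.25, SE 0.12, edgeR adjusted p = 0.569).

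By edgeR 0 of 10 members passed in primary progenitors, where 0.317% of all genes did. There 3 members were at an unadjusted p under 0.05, as were 8.63% of all genes. The figures were 0 of 8 members in neurogenic progenitors (0.0988% of all genes, 0 members at an unadjusted p under 0.05), 0 of 9 in photoreceptor precursors (0.0941%, 2 members) and 0 of 8 in amacrine cells (0.269%, 0 members). Of all genes, 5.24%, 5.66% and 5.28% were at an unadjusted p under 0.05 in these types, in that order. DESeq2 also called 0 members over the 4 types. The median log2 fold change of the members was 0.24, 0.02, 0.06 and -0.12 in the same order, beside 0.0060, -0.0027, 0.0031 and -0.00033 over all genes. The *Egr1* estimate was positive in each type but fell to -0.057 in neurogenic progenitors without the first explant at 0 nM. It was among the 3 members with the smallest p in each type, with log2 fold changes of 0.34 (SE 0.19) in neurogenic progenitors, 0.31 (SE 0.14) in photoreceptor precursors and 0.20 (SE 0.14) in amacrine cells. *Btg2* had negative estimates in neurogenic progenitors (log2 fold change -0.19, SE 0.14, edgeR adjusted p = 0.964) and photoreceptor precursors (log2 fold change -0.25, SE 0.12, edgeR adjusted p = 0.843), and the first turned positive and the second came to about 0 without the first explant at 500 nM.

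The allelic series asks the reverse question, whether loss of Sstr2 changes them. *Sstr2* itself measured only 3.44 to 24.4 CPM in P0 amacrine cells, where neurogenic progenitors held 112 to 375 CPM. At P0 most estimates for the members were negative in amacrine cells (8 of 10) and in cells named RGCs (9 of 9), and 2 passed the threshold, both in the latter. The median log2 fold change over all genes was -0.00071 in amacrine cells and -0.0026 in cells named RGCs. Members tended to rise and fall together between samples, so counts of members are not counts of independent genes. In amacrine cells *Junb* measured 87.8 CPM in the retina labelled +/+, 86.0 and 98.1 CPM in the pair labelled +/- and 42.7 and 55.8 CPM in the pair labelled -/-. *Fosb* measured 30.4 CPM in the retina labelled +/+, 21.7 and 30.6 CPM in the pair labelled +/- and 7.45 and 10.7 CPM in the pair labelled -/-, and *Jun* measured 125 CPM in the retina labelled +/+, 171 and 101 CPM in the pair labelled +/- and 52.2 and 79.5 CPM in the pair labelled -/-. For each of these genes both retinas labelled -/- lay below the other 3. That held for 6 of the 9 members above a mean of 5 CPM (*Fos*, *Fosb*, *Jun*, *Junb*, *Jund* and *Ier2*), where 10.4% of all genes did so. No member passed the threshold against the pair labelled +/- (log2 fold change -0.88, SE 0.16, edgeR adjusted p = 0.142 for *Junb*). *Fosb* (log2 fold change -1.50, SE 0.31, edgeR adjusted p = 0.219) and *Jun* (log2 fold change -1.004, SE 0.23, edgeR adjusted p = 0.392) had the next smallest p. By edgeR 0 of 10 members passed there, where 0.0386% of all genes did, and DESeq2 called 0. At an unadjusted p under 0.05 there were 7 members, beside 4.29% of all genes.

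Among cells named RGCs all 9 members tested had negative estimates and 2 of 9 passed the threshold, where 0.586% of all genes did. *Jun* measured 153 CPM in the retina labelled +/+, 209 and 118 CPM in the pair labelled +/- and 101 and 62.5 CPM in the pair labelled -/- (log2 fold change -0.999, SE 0.22, edgeR adjusted p = 0.00269). *Dusp1* measured 27.0 CPM in the retina labelled +/+, 59.7 and 57.4 CPM in the pair labelled +/- and 14.1 and 31.3 CPM in the pair labelled -/- (log2 fold change -1.46, SE 0.40, edgeR adjusted p = 0.0496), so the retina labelled +/+ lay between the pair labelled -/-. *Junb* lay just outside (log2 fold change -0.90, SE 0.25, edgeR adjusted p = 0.0532). Both retinas labelled -/- lay below the other 3 for 5 of 9 members (*Fosb*, *Jun*, *Junb*, *Jund* and *Btg2*), against 9.39% of all genes, again with members that are not independent of each other. These values rest on 12 to 26 cells per retina. Neither call was made by DESeq2, or with the retinas labelled +/+ and +/- taken as 1 group, and *Jun* lost its call without the first retina labelled +/- or the second labelled -/-. *Dusp1* kept its call in 2 of 10 alternatives. In amacrine cells 7 of 10 members passed with no filter on low counts, where 0.359% of all genes did. Without the second retina labelled -/- that group is 1 retina, so calls made there do not measure the spread between retinas labelled -/-.

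**Figure D5:**
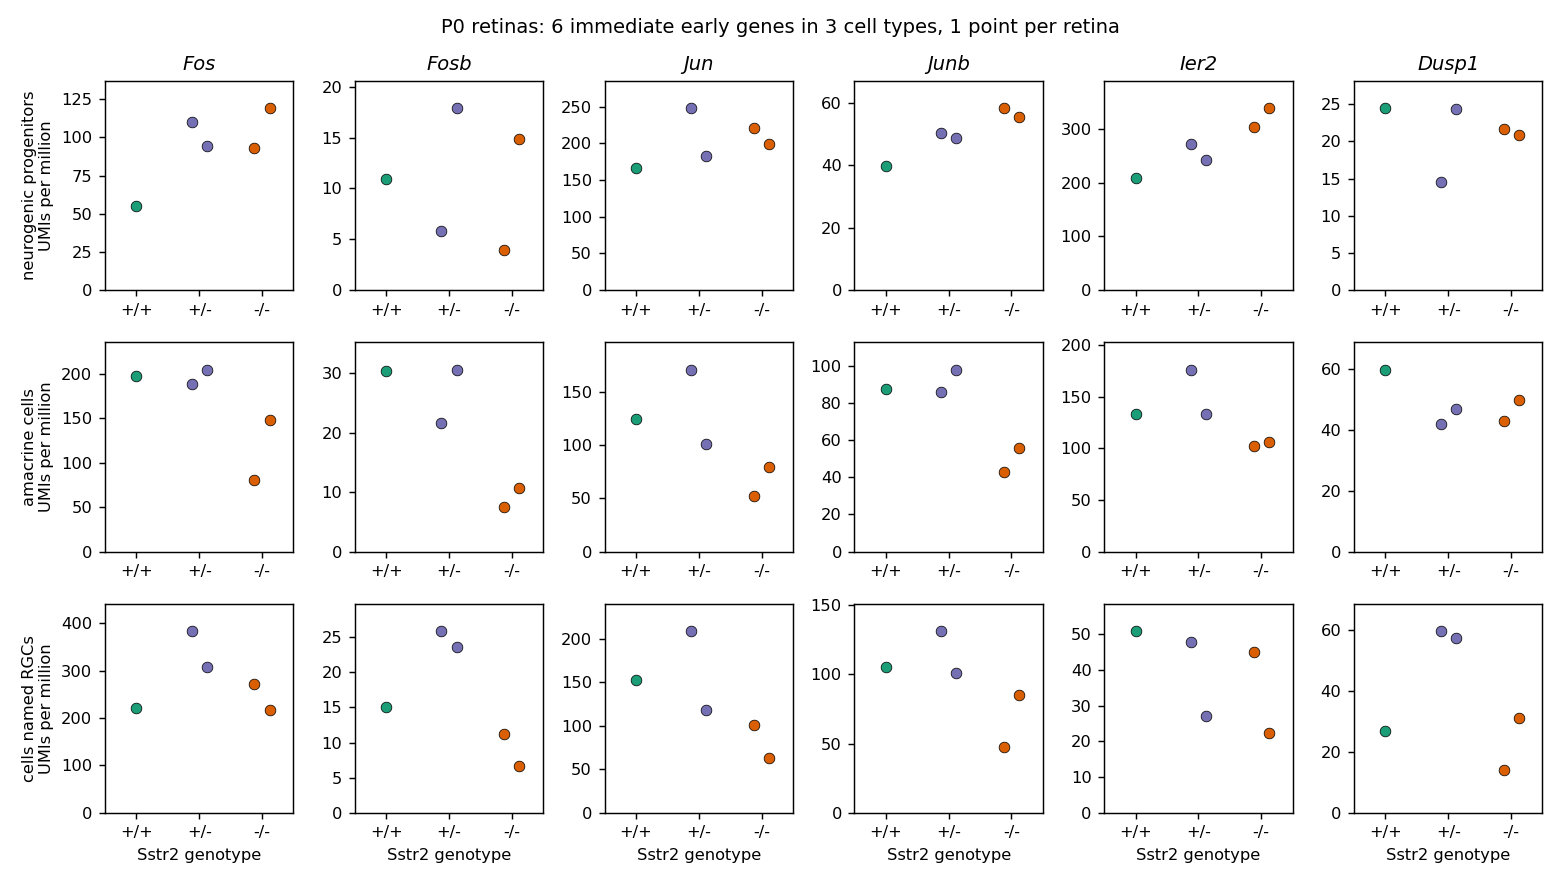
Level of 6 immediate early genes (CPM, axes from 0) in neurogenic progenitors, amacrine cells and cells named RGCs of the 5 P0 retinas, by labelled Sstr2 genotype, with 1 point per retina. In amacrine cells both retinas labelled -/- lie below the others for *Fos*, *Fosb*, *Jun*, *Junb* and *Ier2*, while in neurogenic progenitors both lie above them for *Junb* and *Ier2*.

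The estimates in the other 3 types were of both signs, with a median log2 fold change of -0.10 for primary and -0.02 for neurogenic progenitors and -0.27 for photoreceptor precursors, beside -0.55 in amacrine cells and -0.90 in cells named RGCs. In primary progenitors the sums labelled -/- were 3040.3 and 3912 CPM, the lowest and the highest of the 5 retinas. By edgeR 0 of 10 members passed there (0.00838% of all genes, 0 members at an unadjusted p under 0.05). The same count was 0 of 10 in neurogenic progenitors (0.0111%, 1 member) and 0 of 10 in photoreceptor precursors (0.0592%, 2 members), and DESeq2 called 0 in each. An unadjusted p under 0.05 was reached by 3.58%, 4.14% and 6.87% of all genes in these types, in that order. The smallest p belonged to *Junb* in primary progenitors (log2 fold change -0.21, SE 0.13, edgeR adjusted p = 0.997), *Ier2* in neurogenic progenitors (log2 fold change 0.32, SE 0.11, edgeR adjusted p = 0.989) and *Fos* in photoreceptor precursors (log2 fold change -0.47, SE 0.16, edgeR adjusted p = 0.577). In photoreceptor precursors both retinas labelled -/- lay below the other 3 for 2 of 10 members (*Fos* and *Dusp1*), where 11.5% of all genes did so. In neurogenic progenitors both lay above the other 3 for 2 of 10 (*Junb* and *Ier2*), where 9.94% of all genes did so. The first retina labelled -/- had the lowest sum in 3 of the 5 types and the first labelled +/- the highest in 3 of the 5.

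Neurogenic progenitors, which express Sstr2, were also compared with the single retina labelled +/+, for which the spread was taken from the other groups, so that this retina and its label cannot be told apart. *Ier2* measured 208 CPM in the retina labelled +/+, 273 and 243 CPM in the pair labelled +/- and 303 and 338 CPM in the pair labelled -/- (log2 fold change 0.61, SE 0.14, edgeR adjusted p = 0.478). *Fos* measured 54.8 CPM in the retina labelled +/+, 110.2 and 94.3 CPM in the pair labelled +/- and 92.8 and 119 CPM in the pair labelled -/- (log2 fold change 0.94, SE 0.22, edgeR adjusted p = 0.528), with the retina labelled +/+ below the other 4. *Atf3* measured 32.0 CPM in the retina labelled +/+, 9.67 and 9.75 CPM in the pair labelled +/- and 1.97 and 6.94 CPM in the pair labelled -/- (log2 fold change -2.82, SE 0.53, edgeR adjusted p = 0.157). By edgeR 0 of 10 members passed, where 0.0334% of all genes did, and DESeq2 called 0. At an unadjusted p under 0.05 there were 4 members, beside 440 of all 8984 genes tested in neurogenic progenitors. In the subset of these cells with at least 1 *Sstr2* UMI, 46 to 71 per retina, 1 of 10 passed, against 0.0687% of all genes. This was *Atf3*, at 79.0 CPM in the retina labelled +/+, 17.0 and 9.06 CPM in those labelled +/- and 4.04 and 10.8 CPM in those labelled -/- (log2 fold change -3.30, SE 0.53, edgeR adjusted p = 0.0174). With 35, 9, 6, 2 and 7 UMIs in that order, *Atf3* passed the count filter only through the retina where it was high, so its call is no support for a difference by genotype. The subset was also chosen on *Sstr2* UMIs, which differed by label.

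The *Atf3* difference came from very few cells. In neurogenic progenitors of the retina labelled +/+, 34 of the 38 *Atf3* UMIs lay in 3 cells, and over all 5 retinas 17 of 669 neurogenic progenitors held an *Atf3* UMI. *Atf3* no longer entered the test when the 5% of cells with the highest doublet score were left out, and its call was lost without either retina labelled -/- and by DESeq2, and held in 4 of 7 alternatives. The set of genes that the study used to order these cells held *Egr1* and *Ier2* and was chosen on the same cells, so their differences here are not independent of it. *Ier2* (log2 fold change 0.96, SE 0.22, edgeR adjusted p = 0.179) and *Fos* (log2 fold change 1.48, SE 0.35, edgeR adjusted p = 0.216) did not pass.

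At P14 no member passed the threshold between the pairs labelled -/- and +/- in any tested type. In Müller glia *Ier2* had the smallest p, measuring 1605 CPM in the retina labelled +/+, 1558 and 1154 CPM in the pair labelled +/- and 1619 and 2019 CPM in the pair labelled -/- (log2 fold change 0.39, SE 0.17, edgeR adjusted p = 1). *Fos* and *Dusp1* there had log2 fold changes of -0.10 (SE 0.13) and 0.15 (SE 0.19). By edgeR 0 of 10 members passed in Müller glia (0.102% of all genes, 1 member at an unadjusted p under 0.05), 0 of 10 in rods (0.0106%, 0 members), 0 of 9 in cones (0.0785%, 2 members) and 0 of 10 in bipolar cells (0.137%, 2 members). Of all genes, 3.27%, 2.89%, 4.48% and 3.45% were at an unadjusted p under 0.05 in these types, in that order. DESeq2 called 0 members in each type.

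Single retinas set the sizes at P14. *Fos* in cones measured 1782 CPM in the retina labelled +/+, 1578 and 3441 CPM in the pair labelled +/- and 2178 and 1097 CPM in the pair labelled -/-, so that the estimate (log2 fold change -0.55, SE 0.19, edgeR adjusted p = 0.626) rested on the second retina labelled +/-, which had 11 cones, and it was 0.07 on the log2 scale without that retina. *Fosb* in bipolar cells measured 292 CPM in the retina labelled +/+, 223 and 253 CPM in the pair labelled +/- and 511 and 237 CPM in the pair labelled -/- (log2 fold change 0.68, SE 0.31, edgeR adjusted p = 0.999), with the first retina labelled -/- above the others, and that retina also held the most *Atf3*, of which 48 of its 52 UMIs lay in 1 cell. Its bipolar sum of the 10 genes was 3751 CPM. Without the 6 bipolar cells that carried microglia markers, no retina exceeded 3121 CPM. *Fosb* alone was not tested without those cells. In rods *Fos* measured most in the retina labelled +/+, at 2069 CPM, and its estimate was small (log2 fold change -0.21, SE 0.12, edgeR adjusted p = 1). Of the 3 other gene lists, the further immediate early genes, upstream regulators and heat shock genes, 2 genes passed in any of the 15 fits. These were *Gadd45b* (log2 fold change -1.63, SE 0.26, edgeR adjusted p = 0.00651) and *Mt1* (-0.89, SE 0.16, edgeR adjusted p = 0.0167), a stress-response gene and a metallothionein, both lower in Müller glia labelled -/- than in those labelled +/-. They were among 34 and 16 genes of their lists tested there, where 9 of 8816 genes passed. DESeq2 called 1 gene in that type, and taking +/+ and +/- together also gave 1. At most 1 of these 2 calls therefore held in either setting. The second retina labelled +/- had 14 Müller glia cells.

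Most members tended to move together from sample to sample within cell types. The measure was the Pearson correlation with the mean of the standardized members over sample-by-type sums, as log2(CPM + 1) centred on each type, with 32 points in the explants, 25 at P0 and 20 at P14. Averaged over the libraries it was 0.86 for *Jun*, 0.83 for *Fos*, 0.79 for *Junb*, 0.76 for *Ier2* and 0.54 for *Btg2*, the lowest of the 8 members that reached 20 CPM in every library. These values include each member in the mean it is compared with, which raises them, so they cannot be set against those of other genes. Points of 1 sample also share its library and depth. Of 5076 other genes, the most alike included *Jmjd1c* (0.57), *Phactr4* (0.52), *Larp1* (0.52), *Cdc40* (0.51), *Epc1* (0.51), *Foxo3* (0.49), *BC005561* (0.48), *Ypel2* (0.48) and *Ppt1* (0.48), where the median over all genes was -0.015. The value for *Btg2* varied between libraries, at 0.25 in the explants, 0.84 at P0 and 0.54 at P14.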

How the data were processed

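Retinal cells of 3 pooled 10x Chromium 3′ libraries (MULTI-seq) were analysed. The values used are the unnormalized UMI count matrices that the authors deposited, with a table giving each cell's sample, dose or genotype and type. Cell Ranger 3.1.0, Seurat 3 and mm10 are named in the submitters' processing notes, and samples of origin were assigned with deMULTIplex. How cells were filtered, and whether doublets were removed before deposit, is not given in the sources used here. A deposited SCTransform-corrected matrix of each library was not used.

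Counts were summed over the cells of each deposited type in each of the 18 samples (14611 cells). The libraries shared 9, 4 and 7 cell barcodes. Types with at least 10 cells in every sample compared were tested over all genes with edgeR 4.0.16 (quasi-likelihood test, TMM, filterByExpr, Benjamini-Hochberg adjusted p under 0.05, separately in each type), and all samples of a library entered each fit. The explant cells named RGCs and the P14 amacrine cells were not tested. DESeq2 1.42.0 was an alternative, with other settings named in the closing section. In data simulated with 4-fold changes, edgeR recovered 89.5% of them in the explant design (6072 genes) and DESeq2 63.5%, and 80% and 60.5% in the P0 design (8984 genes). edgeR made 11 and 6 false calls in these simulations and DESeq2 0 and 0. The means came from neurogenic progenitors, and every gene was given the same fixed dispersion. Recovery of smaller changes, or of genes that vary more between samples, was not simulated.

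Genes were counted as overlapping or not only at a mean of at least 5 CPM. Cells were thinned to 2000 UMIs for shares of cells. Scrublet, run through scanpy 1.11.5, called 91, 6 and 2 doublets, so no call was used, and the 5% of cells with the highest score were left out as an alternative. Named genes were all 10 members, with tests for those past the threshold and the 3 with the smallest p in each type, genes of the other lists past the threshold, and the 10 genes most alike, of which 1 is not reported here. The members and lists were chosen with earlier results of these data known. The sources do not say how many explants or retinas made up a sample, so each is called 1 explant or 1 retina here. Sample numbers are only names, and p-values over 2 samples a group measure the spread between these samples. Sex is not among the labels used here. The paper found *Xist* to differ by dose and by genotype in neurogenic cells, which it puts down to a likely difference in sex between samples. The part of sex in the member levels was not tested. The group labelled +/+ is 1 retina, whose spread is assumed to equal that of the other groups.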

Additional observations from a re-analysis of the deposited data

Results flagged for a closer look

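In the P0 retinas, 2 members lay on opposite sides in different cell types, with both retinas labelled -/- beyond the other 3 in each case. *Junb* in the retinas labelled -/- was 1.23 times the mean of the other 3 in neurogenic progenitors, 0.543 times in amacrine cells and 0.589 times in cells named RGCs. *Ier2* was 1.33 times the mean of the other 3 in neurogenic progenitors and 0.706 times in amacrine cells. Of all genes, 9.94% lay above in this way in neurogenic progenitors, and 10.4% and 9.39% lay below in amacrine cells and cells named RGCs. The difference between the cell types was not tested for either gene, and all types of a retina share its library and dissociation.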

How the results depend on the processing

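Levels by cell type moved little: the summed level of the 10 genes moved by more than the spread between samples only for P0 photoreceptor precursors, to 2386 CPM without the 5% of cells with the highest doublet score, and for P14 Müller glia, to 16980.1 CPM without the cells with 3 or more UMIs of endothelial markers. The endothelial cut rested mostly on *Kdr* and on a fixed number of UMIs, which deeper cells reach more easily. The P0 over explant ratio in primary progenitors was 2.10 when the explants at 0 nM were set against the retina labelled +/+. Counts of calls moved more. They are summed over the cell types of a comparison, so a gene called in more than 1 type counts more than once. Without a filter on low counts, members were called in 1 of 40 tests in the explants, beside 126 of 61601 tests over all genes. For -/- against +/- at P0 the figures were 9 of 50 beside 218 of 79542. They were 1 of 10 beside 6 of 15409 against +/+ and 4 of 10 beside 44 of 14469 in Sstr2-positive cells. At P14 they were 0 of 40 beside 75 of 61128. DESeq2 called 0 members in every comparison, with 5, 17, 3, 1 and 4 genes in the same order. Without the cells of highest doublet score, members were called in 1 of 35 tests in the explants, beside 49 of 29535 over all genes. For -/- against +/- at P0 this was 1 of 47 beside 37 of 47136, and in Sstr2-positive cells 0 of 9 beside 5 of 6696. Over all genes 8 passed against +/+ and 15 at P14. Taking +/+ and +/- together, an alternative chosen after seeing the data, gave 0 members (11 genes) at P0 and 4 genes at P14.

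Leaving out 1 sample gave 0 to 1 members (36 to 286 genes) in the explants, 1 to 9 (31 to 217) for -/- against +/- at P0, 0 to 2 (3 to 39) against +/+, 0 to 4 (0 to 49) in Sstr2-positive cells and 0 to 2 (7 to 104) at P14. The 9 members came without the second retina labelled -/-, 7 of them in amacrine cells. A group left with 1 sample is assumed to vary like the others. Log2 fold changes that changed sign ranged from -0.55 to 0.080 (*Btg2*) and -0.057 to 0.71 (*Egr1*) in explant neurogenic progenitors, from -0.53 to 0.00052 (*Btg2*) and -0.11 to 0.42 (*Ier2*) in explant photoreceptor precursors, from -0.89 to 0.055 for *Atf3* in primary progenitors and -0.74 to 0.048 for *Egr1* in photoreceptor precursors at P0, and at P14 from -0.39 to 0.011 (*Fos*) and -0.40 to 0.059 (*Egr1*) in rods, -1.20 to 0.070 (*Fos*) in cones, -3.77 to 2.99 (*Atf3*) in bipolar cells and -0.32 to 0.16 (*Fos*) and -0.15 to 0.58 (*Dusp1*) in Müller glia. The cause was not tested. No paired analysis was possible because the sample numbers are only names and the barcodes are not shared between groups. Depth limits *Atf3*, *Fosb* and *Dusp1* most.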

Other observations

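UMIs of the members were unevenly spread over P0 primary progenitors. The 140 cells with the most UMIs of a gene, 5% of 2797, held 66.1% of the *Atf3* UMIs, 50.1% of those of *Fosb* and 32.9% of those of *Fos*. Genes with few UMIs reach a high share more easily, and *Fos* had 12829 UMIs where *Atf3* had 1644. In P14 bipolar cells 1 cell held 48 of the 52 *Atf3* UMIs of the first retina labelled -/-, and 1 cell held 35 of the 45 of the retina labelled +/+.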
